A study of Mus musculus with 6 samples.

Results

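The E2F factors, Mybl2 and Foxm1 are transcription factors that turn the genes of DNA replication and mitosis on and off. The 10 genes examined are E2f1 to E2f8, Mybl2 and Foxm1, chosen by symbol from the list of known cell cycle factors. All 10 were found among the 24063 gene symbols of the count files, and all 10 passed the filter on low counts. The RNA came from endothelial cells (ECs) of C57BL6 male mouse lungs, captured with magnetic beads that carry an antibody to CD31, a surface protein of ECs that platelets and some leukocytes also carry. One group had undergone pneumonectomy (PNX) 7 days before, an operation that takes out 1 lung and is followed by growth of the lung left behind, and the other group was sham-operated. Each group had 3 libraries, each pooled from 2 mice, and no transgene or drug is named for either group. The labels give an age of 8 weeks, whereas the methods of the study give an older age at surgery.

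E2F factors bind DNA mostly as dimers with a DP protein (Tfdp1 or Tfdp2). In resting cells the pocket proteins Rb1, Rbl1 and Rbl2 hold them in a state that silences their targets, and cyclin-dependent kinases release them when a cell commits to divide. E2f1, E2f2 and E2f3 are known as activators of the genes of the G1/S transition. E2f4 and E2f5 are the canonical repressors that work with Rbl1 and Rbl2. E2f6 lacks the pocket protein binding part and represses with a Polycomb complex. E2f7 and E2f8 are atypical repressors that carry a pair of DNA-binding parts, bind without a DP partner and are themselves E2F targets that are switched on in S phase. Mybl2 (B-Myb) joins the MuvB complex to open the genes of the G2/M transition, and Foxm1, a forkhead factor, joins it later to drive mitotic genes. In the adult lung most ECs are resting, so that factors of the dividing cell are usually low.

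The total count per library ranged from 29526989 to 81282871. Replicates 1 and 2 of both groups are marked in the labels as re-used from an earlier record, here the earlier deposit, and replicate 3 of both groups is the later deposit. Replicates 1 and 2 differed by little more than counting error (chi-square per degree of freedom of 1.75 in sham and 1.57 in PNX, against 67.9 to 86.4 for pairs with replicate 3). Their sum therefore entered as 1 sample, and each group has n = 2 samples. Whether they are separate pools of mice or repeats of 1 pool could not be settled from the sources used here, so a count of genes with all 3 libraries of a group on one side may rest on 2 samples per group. Levels are given as CPM, the count of a gene per 1e+06 counts of its library, with library totals scaled by the trimmed mean of M-values (TMM). The groups were tested with the quasi-likelihood test of edgeR over 16598 genes. Genes with an adjusted p (Benjamini-Hochberg over all genes tested) under 0.01 whose log2 fold change exceeded 1 in either direction are termed called, after the thresholds of the study. The same test with the deposit as a replicate block, which compares PNX with sham inside each deposit, is given beside it because it changed the calls. The p-values measure the spread between these samples, which are pools and not single mice. Without the block this spread includes the difference between the deposits, since the samples of a group come from different deposits. With the block it leans on the spread estimated over all genes. In bulk RNA more dividing cells and more RNA of a gene per cell cannot be told apart.

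The genes lie on 9 chromosomes, and some of them share their place with another gene. Positions are those of GENCODE vM21 on GRCm38. E2f1 lies on chromosome 2 (154559407 to 154569892, minus strand), as does Mybl2 (163054687 to 163084688, plus strand). E2f2 lies on chromosome 4 (136172394 to 136196057, plus strand), E2f4 on chromosome 8 (105297663 to 105305370, plus strand) and E2f6 on chromosome 12 (16810963 to 16839742, plus strand). E2f3 lies on chromosome 13 (29906575 to 29986063, minus strand), where it overlaps an antisense gene, Gm11365. E2f5 lies on chromosome 3 (14578641 to 14606309, plus strand) and overlaps 1810022K09Rik on the other strand. E2f7 lies on chromosome 10 (110745439 to 110787384, plus strand) and overlaps the antisense gene 1700020G17Rik. E2f8 lies on chromosome 7 (48866429 to 48881596, minus strand) and overlaps Gm2788 on the other strand. Foxm1 lies on chromosome 6 (128362967 to 128376146, plus strand) and overlaps Tex52 and Gm44596 on its own strand, and Mybl2 holds the miRNA gene Mir7003. No source used here says whether strand was used in counting, so reads of these overlaps cannot be told apart.

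The start regions of several of these genes carry letters that E2F and MuvB complexes are known to use, and the stretches with such letters are shown for that reason. RefSeq windows of 300 bases (250 before to 50 after a start, build GRCm38.p6) were held for 7 of the 10 genes, E2f1, E2f2, E2f3, E2f6, E2f7, E2f8 and Mybl2, as 9 windows. They were searched on both strands for the E2F-like letters TTTCGCGC, TTTGGCGC, TTTCCCGC and TTTGGCGG, for TTTGAA (the cell cycle homology region, CHR, which MuvB binds) and for CCAAT (the box bound by NF-Y). No 2 of the matches overlapped. Capitals mark the matches, and a match on the other strand reads as its reverse complement (GCGGGAAA, TTCAAA or ATTGG). The E2f3 stretch is bases -150 to -1 from the start (chr13:29986064-29986213, minus strand), the E2f7 stretch bases -210 to -1 (chr10:110745229-110745438, plus strand), the E2f8 stretch bases -30 to -1 (chr7:48881597-48881626, minus strand) and the E2f2 stretch bases 18 to 47 after the start (chr4:136172291-136172320, plus strand).
E2f3: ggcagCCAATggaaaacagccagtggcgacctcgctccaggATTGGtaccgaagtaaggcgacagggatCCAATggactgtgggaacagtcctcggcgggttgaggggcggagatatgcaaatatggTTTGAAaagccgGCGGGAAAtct
E2f7: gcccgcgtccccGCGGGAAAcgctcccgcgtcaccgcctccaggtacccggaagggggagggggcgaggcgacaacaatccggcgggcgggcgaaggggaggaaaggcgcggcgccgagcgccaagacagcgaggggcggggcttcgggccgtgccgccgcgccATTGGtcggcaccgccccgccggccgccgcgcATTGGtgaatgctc
E2f8: gcgggttaatTTCAAAtcgggggctggact
E2f2: atccgaaTTTGGCGGcatatagTTTGGCGC

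E2f3 held both kinds of letters close together, the CHR at -23 to -18 and the E2F-like TTTCCCGC at -11 to -4, with 3 CCAAT boxes before them. E2f7 held 1 E2F-like match at -198 to -191 and 2 CCAAT boxes. E2f8 held a CHR at -20 to -15 and a CCAAT box at -112 to -108, at a start that lies 477 bases inside the outermost RefSeq start of the gene. E2f2 held 2 E2F-like matches, TTTGGCGG and TTTGGCGC, and a CCAAT box at -13 to -9, and the window of its second start, 8508 bases further in, held a CHR and 3 CCAAT boxes. Among 32851 mouse windows of the same length, 2.37% held any E2F-like match, 17.9% a CHR, 37.4% a CCAAT box and 0.323% both an E2F-like match and a CHR. None of these letters was found in the windows of E2f1, E2f6 and Mybl2 or in that of the second start of E2f3. The search took exact letters only, so sites that differ from them in a base were not counted. The Mybl2 window, for example, holds cttggcgg, which differs from TTTGGCGG in its first base. The windows of E2f1 and Mybl2 lie at starts 466 and 308 bases inside the outermost start.

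Foxm1, both atypical repressors, Mybl2 and E2f1 had the largest differences after PNX, and the repressors E2f4, E2f5 and E2f6 the smallest. For 7 of the 10 genes all 3 PNX libraries lay above all 3 sham libraries (E2f1, E2f3, E2f6, E2f7, E2f8, Mybl2 and Foxm1), compared to 18.8% of all genes tested. For the other 3, E2f2, E2f4 and E2f5, the groups overlapped, and no gene had all PNX libraries below. In the fit with 4 samples and no block, 0 of the 10 genes were called by edgeR, as were 0% of the 16598 genes tested, although 6 of the 10 and 2076 of all genes had an unadjusted p under 0.05. With the replicate block edgeR called 5 of the 10 higher after PNX (E2f1, E2f7, E2f8, Mybl2 and Foxm1), where 3.89% of all genes were called higher, and 0 lower. When all 6 libraries entered as separate samples without a block, 2 of the 10 were called higher (E2f7 and Foxm1), compared to 2.28% of all genes. A fit on 6 libraries treats the nearly repeated replicates 1 and 2 as separate replicates, so its p-values may be too small. DESeq2 called the same 5 genes as the block, on the 4 samples (2.51% of genes called higher) and on the 6 libraries (3.47%). The median log2 fold change of the 10 genes was 1.05 without and with the block, where the median over all genes was -0.01.

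**Figure D1:**
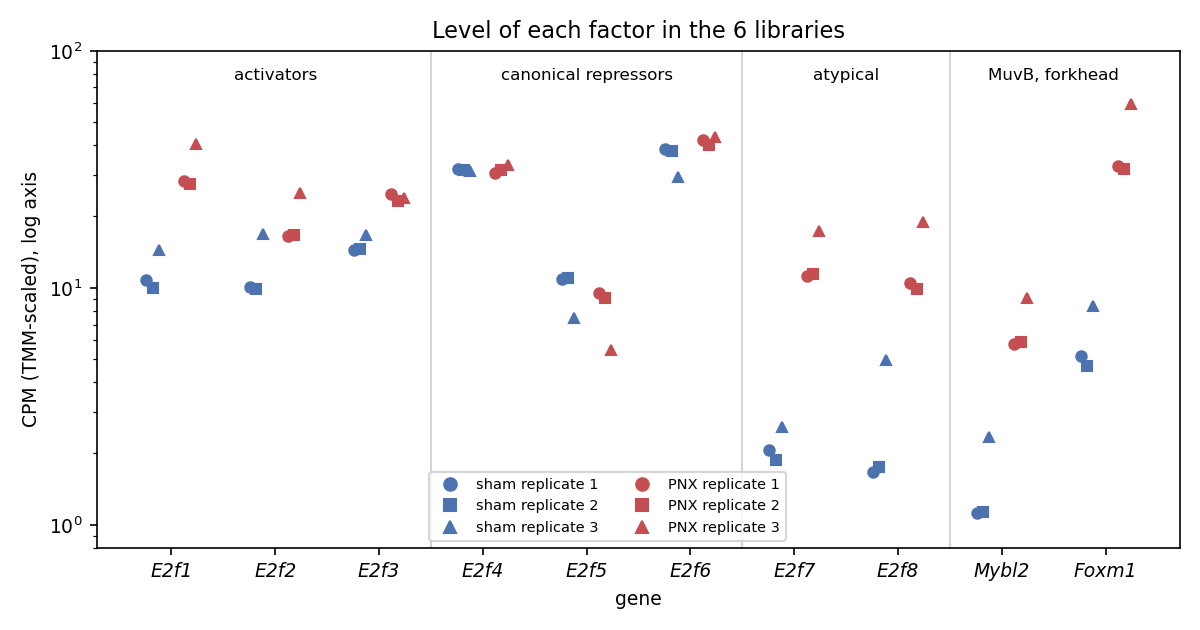
Level of each of the 10 factors in the 6 libraries, in CPM on a log axis; blue stands for sham, red for PNX, and circles, squares and triangles for replicates 1, 2 and 3. In E2f7, E2f8, Mybl2 and Foxm1 the PNX points lie far above the sham points, in E2f4 they lie on top of each other, and in E2f5 the triangles lie lowest in both groups.

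Among the activators, E2f1 differed most. In the order of the replicates E2f1 was at 10.8, 9.98 and 14.4 CPM in sham and at 28.1, 27.3 and 40.5 CPM in PNX, an order kept below. Every PNX library lay above every sham library, and the later deposit was the higher one in both groups. The log2 fold change was 1.47 ± 0.27 (SE, n = 2 samples per group; edgeR adjusted p = 0.139), and with the replicate block it was 1.45 ± 0.10 (edgeR adjusted p = 9.10e-05), which was called. Within the deposits E2f1 was 2.59-fold higher after PNX in the earlier (exact 95% counting interval 2.38 to 2.81) and 2.84-fold higher in the later one (2.44 to 3.31). These intervals are Clopper-Pearson intervals on 1 transcript of each gene, and cover counting error only.

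E2f2, an activator best known from blood cells, was at 10.1, 9.87 and 16.8 CPM in sham and at 16.5, 16.6 and 25.0 CPM in PNX. The groups overlapped, since sham replicate 3 lay above PNX replicates 1 and 2. Inside each deposit PNX was above sham, 1.63-fold in the earlier and 1.52-fold in the later. The log2 fold change was 0.64 ± 0.34 (edgeR adjusted p = 0.546), and 0.66 ± 0.10 with the block (edgeR adjusted p = 0.00413), which passed the p but not the fold threshold.

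E2f3, the activator that is made in a long and a short form, was at 14.5, 14.5 and 16.8 CPM in sham and at 25.0, 23.3 and 23.8 CPM in PNX, without overlap. Its PNX libraries were the most alike of the 3 activators. The log2 fold change was 0.62 ± 0.15 (edgeR adjusted p = 0.206) without and 0.63 ± 0.10 with the block (edgeR adjusted p = 0.00505), again under the fold threshold. The deposited files list 2 transcripts of E2f3 with total counts of 3467 and 3396, 2 of E2f1 with 3595 and 3567, and 2 of E2f6 with 6909 and 6897. In every library the counts of such a pair were nearly equal, so reads that a pair shares appear to have been counted on each, and the CPM of these 3 genes counts such reads on each transcript, in PNX as in sham. These forms of E2f3 could not be told apart for the same reason.

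The canonical repressors differed least. E2f4 was at 31.7, 31.3 and 31.0 CPM in sham and at 30.4, 31.5 and 32.9 CPM in PNX, so that the groups overlapped. Its log2 fold change was 0.029 ± 0.13 (edgeR adjusted p = 0.966), and 0.025 ± 0.090 with the block (edgeR adjusted p = 0.878). E2f4 was 0.963-fold in the earlier deposit (exact interval 0.924 to 1.003) and 1.08-fold in the later one (0.990 to 1.18).

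E2f5 was at 10.9, 11.0 and 7.48 CPM in sham and at 9.54, 9.04 and 5.47 CPM in PNX. The deposits differed more than the groups, and the groups overlapped. Inside each deposit E2f5 was lower after PNX, 0.836-fold (exact interval 0.776 to 0.899) and 0.744-fold (0.608 to 0.910). Its log2 fold change of -0.32 ± 0.35 did not pass (edgeR adjusted p = 0.796), nor did the blocked value of -0.33 ± 0.13 (edgeR adjusted p = 0.110).

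E2f6, the Polycomb partner, was at 38.3, 37.8 and 29.3 CPM in sham and at 41.8, 40.0 and 43.3 CPM in PNX. The groups did not overlap, but the gap between PNX replicate 2 and sham replicate 1 was small, and most of the difference came from the later deposit. The fold was 1.06 in the earlier deposit (exact interval 1.004 to 1.11) and 1.51 in the later one (1.34 to 1.70). The log2 fold change of 0.32 ± 0.18 did not pass (edgeR adjusted p = 0.583), nor did that with the block, 0.32 ± 0.13 (edgeR adjusted p = 0.114).

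Both atypical repressors were among the lowest of the 10 genes in sham and several-fold higher after PNX. E2f7 was at 2.07, 1.88 and 2.58 CPM in sham and at 11.2, 11.4 and 17.4 CPM in PNX. The lowest PNX library was above the highest sham library by a wide margin. The log2 fold change was 2.66 ± 0.31 (edgeR adjusted p = 0.0741), the lowest adjusted p of the 10 genes in the fit without block. It was 2.61 ± 0.15 with the block (edgeR adjusted p = 4.35e-05). The fit on 6 libraries without block, which counts replicates 1 and 2 separately, gave an edgeR adjusted p of 0.00257.

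E2f8 was at 1.68, 1.76 and 4.96 CPM in sham and at 10.5, 9.92 and 18.9 CPM in PNX, without overlap. Sham replicate 3 stood apart from the other sham libraries, with a level of 1.50 higher on the log2 scale than the earlier deposit, the largest such gap of the 10 genes in sham. The fold was accordingly smaller in the later deposit, 3.88 (exact interval 3.26 to 4.64), than in the earlier one, 5.85 (5.12 to 6.70). E2f8 had a log2 fold change of 2.17 ± 0.61 without the block (edgeR adjusted p = 0.261) and 2.27 ± 0.17 with it (edgeR adjusted p = 1.77e-04), which was called.

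Mybl2 was the lowest of the 10 genes in CPM in every library except PNX replicate 3, where E2f5 was lower. It was at 1.12, 1.13 and 2.35 CPM in sham, which rests on 90, 81 and 79 counts, and at 5.81, 5.88 and 9.02 CPM in PNX, on 432, 386 and 269 counts. The groups did not overlap. Mybl2 had a log2 fold change of 2.14 ± 0.46 (edgeR adjusted p = 0.172), and 2.18 ± 0.18 with the block (edgeR adjusted p = 2.71e-04), which was called. The fold was 5.11 in the earlier deposit (exact interval 4.33 to 6.06) and 3.92 in the later one (3.04 to 5.10).

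Foxm1 showed the largest difference of the 10 genes. It was at 5.17, 4.69 and 8.38 CPM in sham and at 32.6, 31.6 and 59.9 CPM in PNX. The later PNX library was by far the highest, and all PNX libraries lay above all sham libraries. Its log2 fold change was 2.81 ± 0.43 (edgeR adjusted p = 0.107), and 2.76 ± 0.10 with the block (edgeR adjusted p = 1.32e-05). With replicates 1 and 2 counted separately in the 6 libraries without block, the edgeR adjusted p of Foxm1 was 0.00682. The fold was 6.38 in the earlier deposit (5.90 to 6.90) and 7.28 in the later one (6.42 to 8.29).

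**Figure D2:**
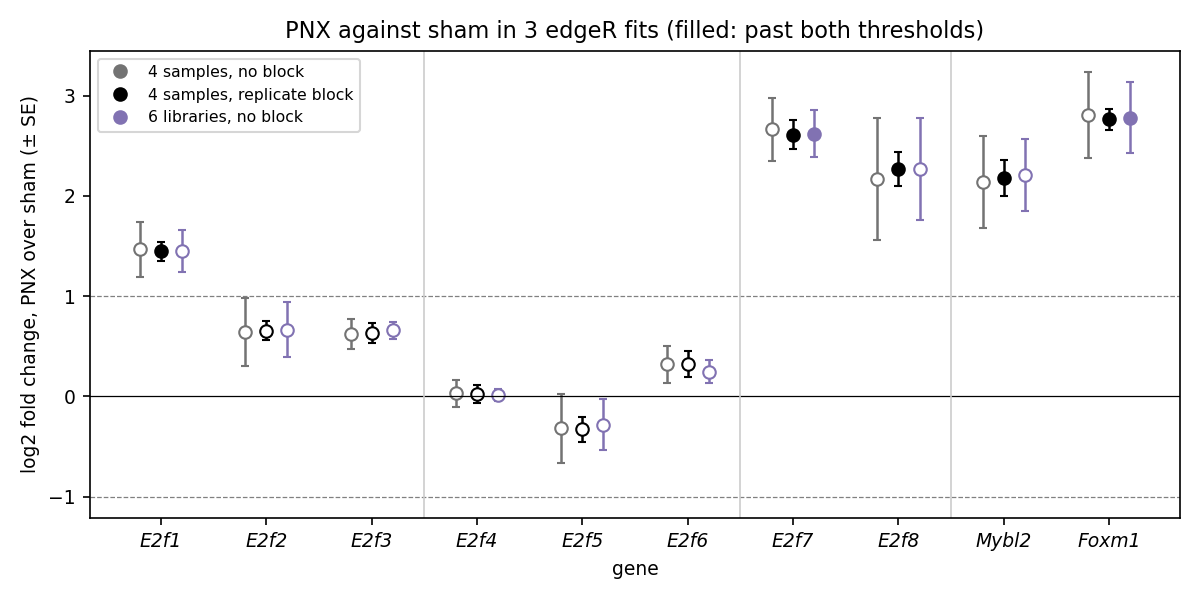
Log2 fold change of PNX over sham with its SE for each factor in 3 edgeR fits, grey with 4 samples and no block, black with the replicate block and purple with 6 libraries and no block; filled points passed the adjusted p of 0.01 and the dashed fold threshold of 1. The block leaves the estimates nearly where they were and narrows the SE, and its 5 filled points are E2f1, E2f7, E2f8, Mybl2 and Foxm1.

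**Figure D3:**
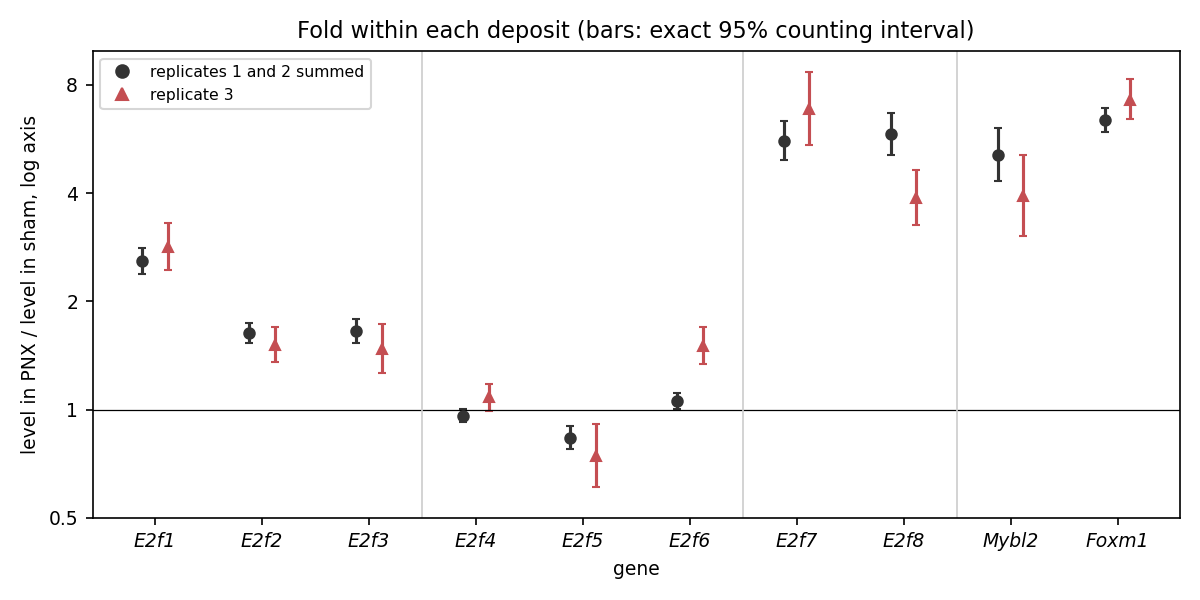
Ratio of the level in PNX to that in sham inside each deposit, on a log axis, with exact 95% counting intervals; circles are replicates 1 and 2 summed and triangles are replicate 3. E2f7, E2f8, Mybl2 and Foxm1 lie between 3.88 and 7.28 in both deposits, E2f5 lies under 1 in both, and E2f4 lies on either side of 1.

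Levels were compared between genes in TPM (the share of a transcript among all transcripts after correction for its length) of the transcript with the highest total count, as deposited. In sham the order was E2f4 (39.4 ± 0.9 TPM, mean and SD of 2 samples), E2f6 (17.0 ± 3.3), E2f5 (13.3 ± 3.7), E2f2 (7.09 ± 2.49), E2f1 (5.84 ± 1.29), E2f3 (3.86 ± 0.34), Foxm1 (3.82 ± 1.36), E2f8 (2.26 ± 1.54), Mybl2 (1.17 ± 0.57) and E2f7 (1.05 ± 0.18). The library ranges of neighbours in this order did not overlap between E2f4 and E2f6, between E2f5 and E2f2 and between E2f1 and E2f3, and overlapped for the other pairs. All 3 canonical repressors thus stood above all 3 activators in sham.

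After PNX the order was E2f4 (40.1 ± 2.4 TPM), Foxm1 (26.5 ± 11.7), E2f6 (21.2 ± 1.2), E2f1 (15.9 ± 4.5), E2f2 (11.0 ± 3.3), E2f5 (10.5 ± 3.7), E2f8 (9.90 ± 4.34), E2f7 (6.58 ± 2.09), E2f3 (5.99 ± 0.07) and Mybl2 (5.04 ± 1.604). Foxm1 stood at rank 7 in sham and at rank 2 after PNX, and E2f4 stayed first in both. From E2f1 downwards every pair of neighbours overlapped, and E2f4 and Foxm1 as well as E2f6 and E2f1 did not.

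The make-up of the E2F transcripts differed between the groups. The summed TPM of E2f1 to E2f8 was 91.8, 90.5 and 88.3 in the sham libraries and 112, 111 and 131 in the PNX libraries. The activators E2f1, E2f2 and E2f3 took 15.4%, 15.0% and 22.3% of this sum in sham and 24.8%, 24.4% and 29.4% after PNX. The atypical repressors E2f7 and E2f8 took 2.30%, 2.29% and 5.12% in sham and 10.8%, 10.7% and 16.0% after PNX. The canonical repressors E2f4, E2f5 and E2f6 took 82.3%, 82.7% and 72.6% in sham and 64.4%, 64.9% and 54.6% after PNX, still the largest class in every library. E2f4 alone took 43.9% in each sham library and 33.7%, 35.4% and 31.9% after PNX. Its own level was 39.4 ± 0.9 TPM in sham and 40.1 ± 2.4 TPM after PNX. A smaller share of the larger sum is thus not a lower level. The share of no class overlapped between the groups. The TPM of E2f7 and E2f8 relative to that of the activators was 0.149, 0.153 and 0.230 in sham and 0.435, 0.439 and 0.545 after PNX, so that the atypical repressors differed more than the activators did.

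**Figure D4:**
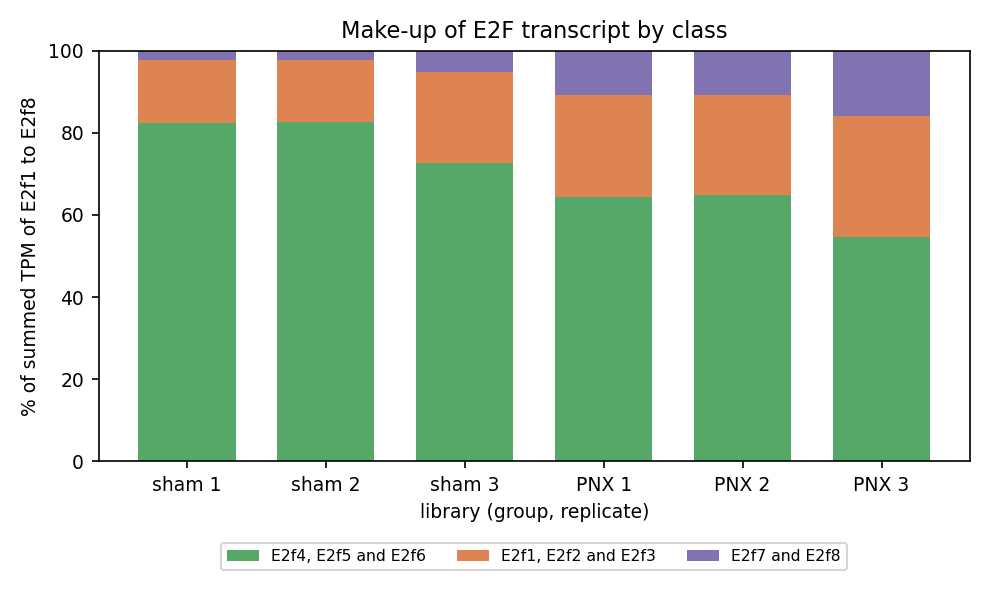
Share of the summed TPM of E2f1 to E2f8 taken by each class, in percent, as stacked bars for the 6 libraries; green is E2f4, E2f5 and E2f6, orange E2f1, E2f2 and E2f3, and purple E2f7 and E2f8. The green part is 72.6% to 82.7% in sham and 54.6% to 64.9% after PNX, and replicate 3 has the smallest green part in both groups.

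The log2 ratio of the activators (E2f1, E2f2 and E2f3) to the canonical repressors (E2f4, E2f5 and E2f6), with the level per length of all transcripts of a gene summed, was -2.05, -2.09 and -1.36 in the sham libraries and -0.99, -1.02 and -0.57 in the PNX libraries. Over the samples it was -1.72 ± 0.50 in sham and -0.78 ± 0.31 in PNX (SD, n = 2 each), a difference of 0.93. A two-sided exact permutation test gave p = 0.333, the smallest that this test allows with 2 samples against 2, so that it cannot reach p under 0.05 here. With the 6 libraries as separate values the difference was 0.98 (exact permutation p = 0.1, again the smallest possible). Within the deposits it was 1.07 and 0.80, and with 1 transcript per gene it was 0.92. Per length, the canonical repressors were thus the larger class in both groups, by less after PNX in each deposit. The size of this lead depended on the measure. With 1 transcript per gene the mean log2 ratio was -2.07 in sham and -1.15 in PNX. In CPM it was -0.85 in sham and -0.058 in PNX. Both the CPM and the summed level per length add the transcript pairs of E2f1, E2f3 and E2f6, whose shared reads appear to have been counted on each. This raises E2f1 and E2f3 among the activators but only E2f6 among the canonical repressors. The nearly level classes in CPM after PNX therefore rest in part on this counting. The ratio in CPM with 1 transcript per gene was not computed.

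The same partners serve several of these factors, and their levels were compared in the same fits. The list of 12 E2F and DREAM partners held DP and pocket proteins, MuvB subunits, and Mybl1 and Myb. DREAM is a complex that holds pocket proteins and MuvB, whereas Mybl1 and Myb were listed as relatives of Mybl2. Of these 12, edgeR with the replicate block called 1 higher, where 3.89% of all genes were called higher, and 0 lower. All PNX libraries lay above all sham libraries for 6 of the 12, compared to 18.8% of all genes tested. They lay below for 3, and the share of all genes below was not computed. The median log2 fold change was 0.14, compared to -0.01 over all genes. The gene called was Mybl1 (A-Myb), a relative of Mybl2 known from germ cells. It was at 4.28, 4.02 and 3.65 CPM in sham and at 10.3, 10.02 and 16.0 CPM in PNX (blocked log2 fold change 1.65 ± 0.21, edgeR adjusted p = 0.00212). Tfdp1, the main DP partner, had a blocked log2 fold change of 0.88 ± 0.09 (edgeR adjusted p = 0.00101), under the fold threshold. The lowest values of the list belonged to Myb (-0.69 ± 0.12, edgeR adjusted p = 0.00671), the relative of Mybl2 known from blood progenitors, and the MuvB subunit Lin52 (-0.35 ± 0.12, edgeR adjusted p = 0.0729), and neither was called. Rb1 was at -0.19 and Rbl2 at -0.23 on the log2 scale, and Rbl1, an E2F target itself, was at 0.73 with an edgeR adjusted p of 0.00360, also under the fold threshold. In the 4 samples without the block edgeR called 0 of the 12, and DESeq2 and the 6 libraries called 1. With the block and without PNX replicate 1 the call of Mybl1 was lost, and 0 of the 12 were called.

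Of 10 partners of E2f6 in its Polycomb complex (PRC1.6), 0 were called with the block or without it, and the median log2 fold change with the block was -0.11. All PNX libraries lay above all sham libraries for 1 of the 10, compared to 18.8% of all genes tested. They lay below for 4, and the share of all genes below was not computed. They ranged from Cbx3 (0.41 ± 0.11, edgeR adjusted p = 0.0413) and Yaf2 (0.12) down to Rnf2 (-0.30) and Mga (-0.39 ± 0.08, edgeR adjusted p = 0.0170). Cbx3 and Wdr5 also serve other chromatin complexes, and Max pairs with Myc. Of 4 germline genes that E2f6 is known to silence, only Stag3, a meiotic cohesin subunit, passed the filter on low counts. It was between 0.211 and 0.505 CPM in sham and between 0.646 and 1.04 CPM after PNX, and was not called (blocked log2 fold change 1.08 ± 0.32, edgeR adjusted p = 0.0506).

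The target genes of the factors are described by their counts, with no test of a list as a whole. For all 30 G1/S target genes of E2F and for all 30 G2/M target genes of Mybl2 and Foxm1 the 3 PNX libraries lay above the 3 sham libraries, compared to 18.8% of all genes tested. With the block, edgeR called 26 of the 30 G1/S genes higher (median log2 fold change 1.70) and 29 of the 30 G2/M genes higher (median 2.84), where 3.89% of all genes were called higher, and 0 of either list lower. In the 4 samples without the block edgeR called 0, and the medians were 1.72 and 2.81. The 6 libraries without block called 19 and 27, where 2.28% of all genes were called higher. These lists were chosen with earlier results of these data known, and the same libraries gave both the factors and the targets.

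Among the highest of the G1/S genes with the block was Uhrf1, which keeps DNA methylation through replication, with 17.3, 17.6 and 36.5 CPM in sham and 118, 115 and 183 CPM after PNX (2.54 ± 0.11, edgeR adjusted p = 1.84e-05). The lowest were Pcna, the clamp of the replication fork (0.71 ± 0.08, edgeR adjusted p = 0.00118), and Cdc25a, a phosphatase that activates cyclin-dependent kinases (0.67 ± 0.12, edgeR adjusted p = 0.00927), both under the fold threshold. Among the G2/M genes Cenpf, a kinetochore protein, was highest, with 2.48, 2.58 and 5.41 CPM in sham and 42.3, 42.2 and 55.7 CPM after PNX (3.74 ± 0.16, edgeR adjusted p = 1.84e-05). Ube2c, the ubiquitin ligase partner that ends mitosis, followed (3.51 ± 0.12, edgeR adjusted p = 1.32e-05). The lowest were Cks2 (1.45 ± 0.18, edgeR adjusted p = 0.00182), a partner of Cdk1, and the phosphatase Cdc25b (0.84 ± 0.11, edgeR adjusted p = 0.00200), the one G2/M gene not called.

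**Figure D5:**
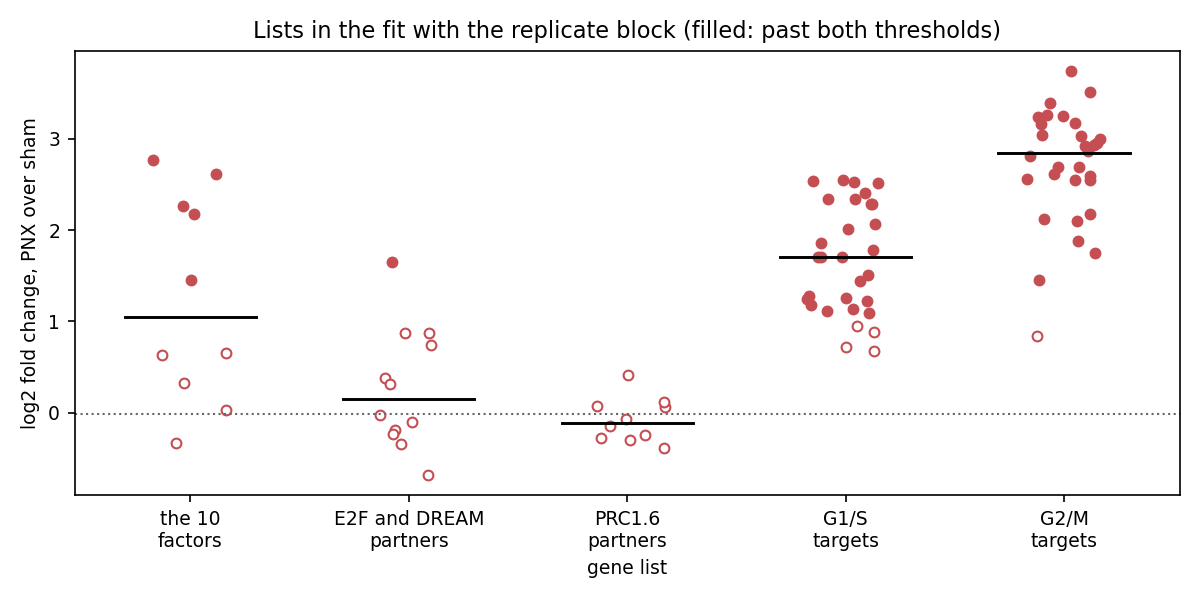
Log2 fold change of PNX over sham with the replicate block for each gene of the 10 factors and of 4 lists; filled points passed both thresholds, black bars are medians and the dotted line is the median over all genes (-0.01). The partner lists lie around the dotted line with 1 filled point of 22, and the G1/S and G2/M lists lie above it with 26 and 29 filled points of 30.

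The genes whose profile over the 4 samples was most like that of each factor were ranked by the root mean square difference of log2 CPM, each gene centred on its mean, among 14156 genes. With so few samples this is a description. For E2f7 the nearest gene was Gtse1 (difference 0.0129 on the log2 scale), a G2/M gene, followed by Dnph1 and Casc5. For E2f1 they were Mxd3, Lig1 and Rad54l, for Mybl2 they were Tk1, Kif4 and Mcm10, and for Foxm1 they were Diap3, Adamts4 and 4933413G19Rik. E2f8 had no gene nearer than 0.103, and its nearest were Slurp1, Dcn and Ildr2. Dcn, which encodes the matrix proteoglycan decorin, is one of the fibroblast markers. For E2f4 the nearest were Mir3082, Map3k7 and Ik, for E2f5 Pgrmc1, Prex2 and Ube2v2, for E2f6 Thop1, Tradd and Cbx5, for E2f2 Gla, Clmp and C1rl, and for E2f3 Plekhf1, Lamc1 and Tmem35.

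Markers of ECs and of other lung cells were read in the same libraries, because any dividing cell of the preparation can carry these factors. The summed CPM of 10 EC markers was 9267 to 11279 in sham and 8420 to 9550 after PNX, with 1 marker higher and 4 lower in all PNX libraries. Of all genes tested, 18.8% were higher without overlap in this way, and the share that was lower was not computed. The summed CPM of 6 fibroblast markers was 1039 to 1252 in sham and 3378 to 4860 after PNX, with 5 of the 6 higher without overlap. The other one, Pdgfra, was the highest of the 6 in each sham library and went the other way. It was at 399, 390 and 323 CPM in sham and at 338, 335 and 192 CPM in PNX, lower inside each deposit. All 4 mast cell markers were also higher without overlap (summed, 3.87 to 5.44 CPM in sham and 12.7 to 24.6 CPM after PNX). So were 3 of 6 macrophage markers, 2 of 4 mesothelial markers and 3 of 4 adipocyte markers (Adipoq, Plin1 and Cfd). The sums over all markers of each of these 3 cell types overlapped between sham and PNX. They were 2278 to 4201 and 2963 to 3955 CPM for macrophages and 74.0 to 270 and 221 to 689 CPM for mesothelial cells. For adipocytes the sum, most of it Cidec, was 28.99 to 56.0 and 39.0 to 41.5 CPM. All 4 alveolar type 2 markers (4492 to 4937 and 1585 to 2884 CPM), all 3 club cell markers and all 3 B cell markers (64.2 to 72.2 and 35.2 to 37.9 CPM) were lower without overlap. No marker was at 0 in every library. The part of these cell types in the levels of the E2F factors, Mybl2 and Foxm1 was not tested.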

How the data were processed

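RNA of CD31-captured lung ECs was measured in 3 sham and 3 PNX libraries, grouped by the sample labels and each pooled from 2 mice. Per the labels' processing notes STAR and mm10 were used; the methods name stranded mRNA libraries and the Basepair platform with its DESeq2 pipeline for counting, whose rule for shared reads is not given in the sources used here. For each library the authors deposited unnormalized counts of 33068 RefSeq transcripts. The authors deposited FPKM beside them, which was not used. The deposited TPM served for levels between genes and for the ratio of the classes, and entered no count test.

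Counts were summed per symbol, and replicates 1 and 2 of each group were summed. edgeR 4.0.16 in R 4.3.3 (TMM, filterByExpr, quasi-likelihood test, Benjamini-Hochberg) was run over all genes, with DESeq2 1.42.0 as an alternative. The SE is the log2 fold change divided by the square root of F. Depth was 29526989 to 81282871 counts per library. With the block 1 residual degree of freedom remains, and the SE leans on the spread estimated over all genes. The fits were also run on simulated counts, with the same deposit shift in both groups and the spread of the blocked fit. The check was whether the median fold change was recovered, so it does not bear on the calls.

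The block rests on the labels, which mark replicates 1 and 2 of both groups as re-used, and on a check. Deviations of same-numbered libraries from their group means correlated across 16263 genes, which are not independent replicates (Pearson's r of 0.50, 0.48 and 0.64 for replicates 1, 2 and 3). Replicates 1 and 2 are nearly repeats, so these 3 values largely repeat 1 contrast, that between the deposits. They do not show a pairing of replicates 1 and 2 by number.

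The genes named are the 10 factors, the 3 genes nearest to each in profile and the 2 highest and 2 lowest of each list of pathway genes. Uhrf1 enters this rule with the block, in place of Ccna2 without it. One gene that the rule names is not reported here. Tfdp1, Rb1, Rbl1, Rbl2, Wdr5 and Max were named for their roles, after their values were seen. The members and lists were chosen with earlier results of these data known. Promoter windows are RefSeq sequences of GRCm38.p6. E2f4, E2f5 and Foxm1 had none in the table used, and protein sequences were not used here. Alternatives were the replicate block, the 6 libraries, DESeq2, other size factors, no filter, 1 transcript per gene and leaving out each library.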

Additional observations from a re-analysis of the deposited data

How the results depend on the processing

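With 4 samples and no block, the count of called genes was 0 for the 10 factors and for all genes, also at an adjusted p under 0.05. At 0.01 it stayed at 0 with DESeq2 size factors, without a filter on low counts and with 1 transcript per gene. Without the filter, 255 genes passed the looser 0.05 and the fold threshold. E2f7 and Foxm1 were among them (edgeR adjusted p = 0.0220 and 0.0356). At 0.01, leaving out each library of the earlier deposit in turn gave 0 factors and 0 genes. Leaving out replicate 3 of a group leaves 1 sample in that group, so only fold changes are given for those fits. With the replicate block, edgeR called 5 factors and 849 genes (645 higher and 204 lower). The 6 libraries gave 2 factors and 409 genes without the block, and 5 factors and 1104 genes with it. DESeq2 gave 5 factors with 587 genes on the 4 samples and 927 on the 6 libraries. Chosen after seeing the data, the block with DESeq2 size factors called 5 factors and 624 genes (540 higher and 84 lower), the block with 1 transcript per gene called 5 and 726, and the block without each library of the earlier deposit called 5 factors each time and 671 and 668 genes without sham replicate 1 or 2 and 485 and 863 without PNX replicate 1 or 2. When a library was left out of the 4 samples, the log2 fold change without block ranged from 0.31 to 1.05 for E2f2, from -0.56 to -0.0036 for E2f5, from 0.14 to 0.33 for E2f6 and from 1.65 to 3.07 for E2f8. Of these ends, the lower for E2f2, the upper for E2f5 and the lower for E2f8 came without PNX replicate 3, and the others without sham replicate 3, except the upper one for E2f6, which came without PNX replicate 2. For E2f4 the log2 fold change was -0.027 to 0.042 when a library was left out and was reversed, at -0.027, without PNX replicate 3, for a gene that no setting called. The ratio of activators to canonical repressors kept its direction in every setting run, with a difference of 0.93 also as the mean within the deposits and of 0.71 to 1.29 when a library was left out.

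With n = 2 samples per group a p that misses the threshold does not show that values did not differ. Low levels limit Mybl2 most, with 79 to 90 counts per sham library. Shared reads of transcript pairs make the intervals of E2f1, E2f3 and E2f6 depend on the transcript chosen.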
